A study of Mus musculus with 6 samples.

Results

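Microglia, the resident macrophages of the brain, were followed in the fetal mouse cortex through 10 genes that mark them, Cx3cr1, Csf1r, C1qa, C1qb, C1qc, Aif1, P2ry12, Trem2, Tyrobp and Fcrls. The genes were taken as known microglial markers by no rule on their values, but with earlier results of these data known. All 10 were found among the 56198 entries of the table and among the 14518 genes that could be tested. The tissue was the cerebral cortex of C57BL/6 fetuses at E14.5, and its RNA was read by RNA-Seq. The Ctr group (3 samples) had 100% O2 for 6 h, and the Sevo group (3 samples) had 2.5% sevoflurane, an inhaled anaesthetic, with 97.5% O2 over the same time. The exposure was maternal, so the gas reached the fetuses of both groups through the dam, and no group was kept in room air. The labels do not say whether the samples of a group came from separate litters, and p-values here measure the spread between these samples only. Values are TPM, a measure of transcript abundance, which allow for transcript length and add up to the same total in each library. They hold no count of reads, and the counting error behind a low value is therefore unknown.

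Microglia descend from yolk sac progenitors, enter the neural tube early in gestation, and are the main immune cells among the dividing progenitors and young neurons of the cortex. They depend on CSF1R, a receptor tyrosine kinase for CSF1 and IL-34, and are guided by CX3CR1, the receptor for the neuronal chemokine fractalkine, and P2RY12, a receptor for extracellular nucleotides that steers their processes. They make the 3 chains of C1q, the recognition molecule of the classical complement pathway, and clear debris with TREM2, a lipid-sensing receptor that signals through the adaptor TYROBP (DAP12). Macrophages at the borders of the brain, in the meninges and the choroid plexus, share many of these genes.

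The 10 genes lie on 6 autosomes in GENCODE M21 (GRCm38/mm10). C1qa (chr4:136895917-136898803), C1qc (chr4:136889804-136893065) and C1qb (chr4:136880129-136886187) stand side by side on the minus strand within 18675 bases. Fcrls (chr3:87250758-87263738) and P2ry12 (chr3:59216272-59262871) share a chromosome, as do Aif1 (chr17:35170991-35176068) and Trem2 (chr17:48346401-48354147). Cx3cr1 (chr9:119901616-120069879) and Tyrobp (chr7:30413760-30417585) are alone on theirs among the members. All are protein-coding genes. RefSeq promoters on GRCm38.p6, from 250 bases before to 50 bases after the start, were used for 7 members (P2ry12, Fcrls, C1qb, C1qc, Cx3cr1, Aif1 and Trem2). Those of Csf1r, C1qa and Tyrobp were left out of the search below.

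The promoters were searched for GAGGAA, the core of the sequence bound by PU.1, the transcription factor encoded by Spi1 that defines the macrophage lineage. The 6 letters were found on either strand in 5 of the 7 promoters. They also stood in 28.3% of all 32851 promoters of the same length, so a match describes a promoter and marks no site. The windows of 30 bases that hold the match are printed below on the strand of the gene, with the match, or its reverse complement TTCCTC, in capitals.
Fcrls: caagtctgtaaaGAGGAAggacgtttgctt
C1qb: gcagcaggatggGAGGAAcagaggggtgat
C1qc: gacggcagacacTTCCTCattttggcacac
Aif1: ataggcacccagTTCCTCcatcctattgtt
Trem2: agcctcctttccTTCCTCcctccctcacgc

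These windows lie at chr3:87263651-87263680, chr4:136886213-136886242, chr4:136893090-136893119, chr17:35176042-35176071 and chr17:48346349-48346378, in the same order. Counted from the RefSeq start, the match began 144 bases before it in Fcrls, 30 in C1qb, 193 in C1qc, 7 in Aif1 and 40 in Trem2. RefSeq and GENCODE starts can differ, and the matches of Fcrls and Aif1 lie inside the GENCODE spans given above. The letters were not in the windows of P2ry12 and Cx3cr1. Spi1 itself was measured in every sample with the other macrophage genes described further on.

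One library stood apart before any comparison was made. Ctr replicate 2 held RNA of tissues that border the cortex. Ttr, the transthyretin made by choroid plexus epithelium, was at 734 TPM in Ctr replicate 2 and between 0.48 and 19.6 TPM in the other 5 samples. The summed level of 10 meningeal fibroblast genes was 120 TPM in that library against 5.55 to 26.6 TPM elsewhere, and 10 of 10 were highest there. Of 10 genes of border macrophages, 9 were highest in Ctr replicate 2, and their sum was 41.1 TPM there against 5.96 to 12.9 TPM. Mrc1, the mannose receptor of border macrophages, was at 3.71 TPM in that library and at 0.18 to 0.6 TPM in the others, and Pf4 was at 11.5 TPM against 0 to 1.78 TPM. The sum of 12 endothelial genes was 132 TPM against 64.3 to 84.1 TPM. Sevo replicate 2 came next for the border macrophage and meningeal sums, at 12.9 and 26.6 TPM. The part of these cells in the member levels was not tested, and the main member results that rest on Ctr replicate 2 are given with and without it. Differences of other genes and median differences of other lists are given only with it.

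**Figure D1:**
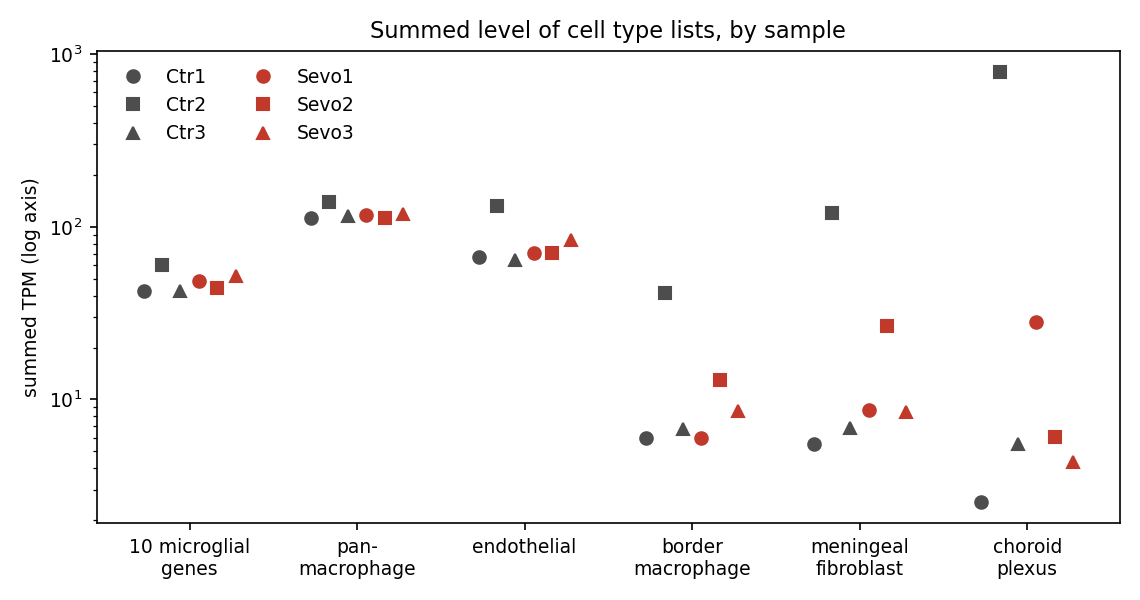
Summed TPM, on a log axis, of the 10 microglial genes and of 5 lists of cell type markers, with 1 point per sample (grey Ctr, red Sevo, shape by replicate number). Ctr2 stands above the other samples at 785 TPM for choroid plexus, 120 TPM for meningeal fibroblasts and 41.1 TPM for border macrophages, and at 60.3 TPM for the microglial genes.

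The cortex markers fitted the labelled tissue, with Neurod6 of glutamatergic neurons between 483 and 622 TPM and Fabp7 of radial glia between 762 and 1180 TPM. Against that, the microglial genes were low. Every member was above 1 TPM in every sample, and the values ran from 1.06 TPM (Cx3cr1 in Sevo replicate 2) to 10.6 TPM (C1qc in Ctr replicate 2), while the median tested gene had a mean of 17.1 TPM. Over all 6 samples, C1qc was the most abundant, with a mean of 8.20 TPM, followed by C1qb at 7.71, Tyrobp at 6.66 and C1qa at 6.65. A second tier held Fcrls at 4.72 TPM, Csf1r at 4.49 and P2ry12 at 3.49. Trem2 at 2.78 TPM, Aif1 at 1.90 and Cx3cr1 at 1.66 were the least abundant. The ranges of each pair of neighbours in this order overlapped. C1qa was above Fcrls in 6 of 6 samples, but C1qc was above C1qb, Tyrobp above C1qa, and Aif1 above Cx3cr1 in 3 of 6 each, so these neighbours had no fixed order.

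**Figure D2:**
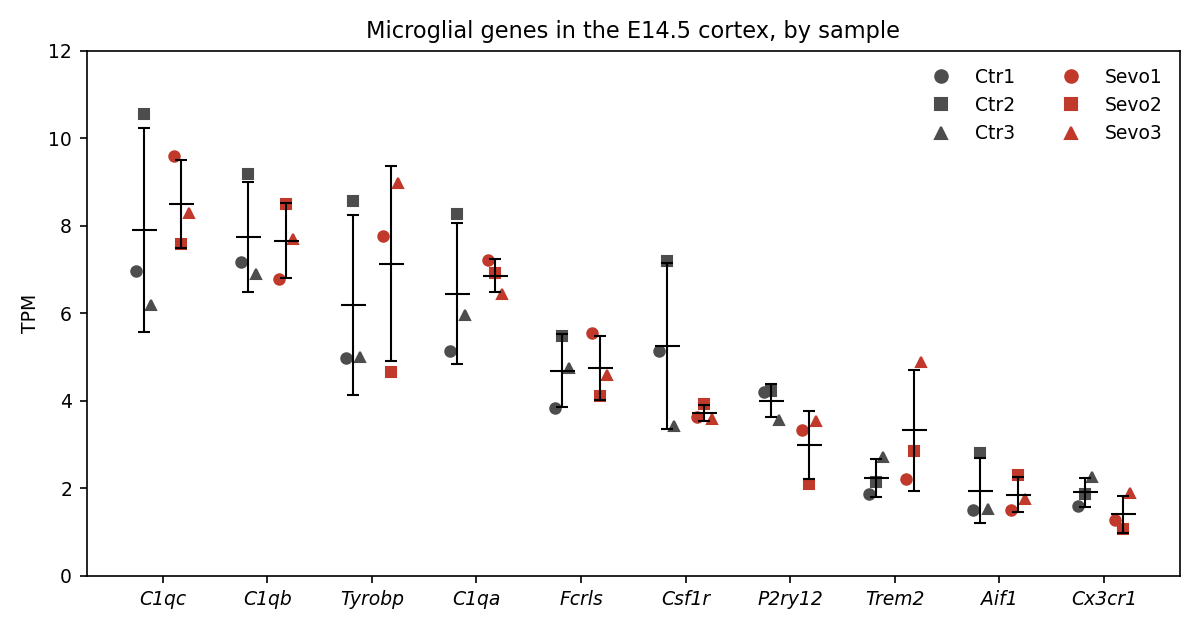
TPM of each microglial gene in each sample, in order of mean level (grey Ctr, red Sevo, shape by replicate number), with the group mean and SD (n = 3) as black bars. Ctr2 is the highest sample for 6 of the 10 genes, and the groups overlap for every gene but P2ry12.

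The main question was whether maternal sevoflurane changed the microglial genes. No member passed an adjusted p of 0.05 (limma, 0 of 10), and 0 of 10 had an unadjusted p under 0.05. Over all tested genes, 0.00689% passed the adjusted threshold, which is 1 gene (the predicted gene Gm44267, lower in Sevo, named after its value was seen), and 19.4% had an unadjusted p under 0.05. Of the members, 5 were lower and 5 were higher in Sevo, and their median difference was 0.003 on the log2(TPM + 1) scale, beside -0.06 over all tested genes. A difference on this scale understates the fold of low genes. The intervals were wide, with 95% half-widths between 0.38 and 0.63. A difference smaller than its half-width could not reach an unadjusted p of 0.05 (limma). The adjusted threshold asked for larger differences still, so changes above these half-widths could also be missed. The exact two-sided permutation p of single members ran from 0.1 to 0.9. In bulk RNA, fewer microglia and less RNA per microglial cell cannot be told apart.

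The sum of the 10 genes was 42.4, 60.3 and 42.3 TPM in Ctr replicates 1 to 3, and 48.9, 44.0 and 51.7 TPM in Sevo replicates 1 to 3. The means were 48.3 ± 10.4 TPM in Ctr and 48.2 ± 3.89 TPM in Sevo (SD, n = 3), a ratio of 0.997. The highest sample was a Ctr sample and the lowest was one too, so the Sevo samples lay within the Ctr range. Without Ctr replicate 2 the ratio was 1.14, and all 3 Sevo sums were then above both Ctr sums. With each gene weighted equally the ratio was 0.969.

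**Figure D3:**
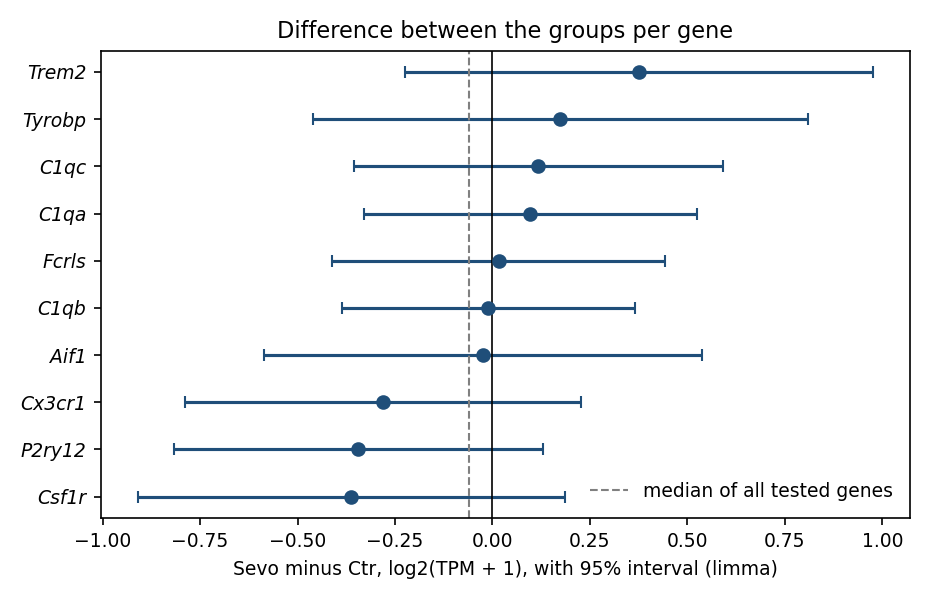
Difference between Sevo and Ctr in mean log2(TPM + 1) for each microglial gene, with its 95% interval from limma (3 samples per group). The dashed line marks the median of all tested genes at -0.06, and every interval includes 0.

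The receptors by which microglia sense growth factor, fractalkine and nucleotides had lower means in Sevo, within their error. P2ry12 was at 4.21, 4.22 and 3.56 TPM in Ctr and at 3.32, 2.09 and 3.54 TPM in Sevo. It was the only member whose groups did not overlap, and the gap between Ctr replicate 3 and Sevo replicate 3 was narrow. Such a pattern, in which the highest Sevo sample was below the lowest Ctr sample, was seen for 17.7% of all tested genes. The difference was -0.34 (95% interval -0.82 to 0.13, adjusted p = 0.394, limma), and the exact two-sided permutation p was 0.1, the smallest that 3 against 3 samples allow. With a sample left out it ran from -0.45 to -0.17, and the smallest difference was that without Sevo replicate 2. P2ry12 lies within Med12l, a gene of the Mediator complex, whose exons it overlaps by 9 bases, and Med12l itself was at 1.98 to 3.68 TPM with no separation of the groups.

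Csf1r was at 5.14, 7.20 and 3.42 TPM in Ctr and at 3.63, 3.93 and 3.59 TPM in Sevo. The Sevo samples lay close together and above the lowest Ctr sample, while Ctr varied about its mean of 5.25 ± 1.89 TPM. The difference was -0.36 (95% interval -0.91 to 0.19, adjusted p = 0.442, limma). It was -0.14 (-0.67 to 0.39) without Ctr replicate 2, and -0.59 (-1.10 to -0.08, unadjusted p = 0.0299, adjusted p = 0.39, limma) without Ctr replicate 3. The size of the Csf1r difference thus moved more than 1.5 times with either Ctr library. Csf1r, on chromosome 18, shares 873 exon bases with Hmgxb3, which was at 16.2 to 17.6 TPM in Ctr and 12.5 to 15.1 TPM in Sevo, and reads of such overlapping exons cannot be told apart without strand.

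Cx3cr1 was at 1.60, 1.87 and 2.25 TPM in Ctr and at 1.28, 1.06 and 1.88 TPM in Sevo. The groups overlapped, since Sevo replicate 3 was above 2 of the Ctr samples. The difference was -0.28 (95% interval -0.79 to 0.23, adjusted p = 0.522, limma), and it was -0.29 without Ctr replicate 2. It was -0.18 without Sevo replicate 2 and -0.42 without Sevo replicate 3. Cx3cr1 shares 78 exon bases with the predicted gene Gm33858.

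No ligand that could be tested passed either. Of 10 genes for microglial ligands and growth factors, 9 were tested, 0 passed, and their median difference was 0.10. Csf1 was at 3.76 to 4.80 TPM in Ctr and 3.78 to 4.73 TPM in Sevo. Il34 was too low to be tested, at 0.34, 0.96 and 0.68 TPM in Ctr and 0.42, 0.15 and 0.22 TPM in Sevo, and its groups overlapped. Cx3cl1, which encodes fractalkine, was at 3.11 to 4.32 TPM in Ctr and 3.12 to 5.98 TPM in Sevo. The most abundant of the list were Cd200, whose product restrains myeloid cells through their CD200 receptor, at 35.5 to 51.1 TPM, and Cxcl12, a chemokine that also guides microglia, at 19.8 to 43.5 TPM. Tgfb2, a member of the TGF-beta family that also acts on neural progenitors, was at 4.51, 5.88 and 5.93 TPM in Ctr and 7.64, 11.4 and 7.75 TPM in Sevo. It was the only gene of the 9 with an unadjusted p under 0.05 (difference 0.61, adjusted p = 0.165, limma). Over all tested genes, 19.4% had such a p.

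The C1q chains, which assemble in equal numbers into 1 protein, had similar means in the groups. C1qa was at 5.14, 8.26 and 5.95 TPM in Ctr and 7.21, 6.91 and 6.45 TPM in Sevo. C1qb was at 7.16, 9.19 and 6.90 TPM in Ctr and 6.79, 8.50 and 7.69 TPM in Sevo. C1qc was at 6.97, 10.6 and 6.19 TPM in Ctr and 9.59, 7.59 and 8.30 TPM in Sevo. Each chain was highest in Ctr replicate 2, and the groups overlapped for all 3. The differences were 0.10 for C1qa, -0.01 for C1qb and 0.12 for C1qc, with 95% intervals of -0.33 to 0.52, -0.39 to 0.37 and -0.36 to 0.59 and adjusted p-values of 0.808, 0.978 and 0.787 (limma).

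Without Ctr replicate 2, every Sevo sample was above both remaining Ctr samples for 2 members, C1qa and C1qc, and below them for 1, P2ry12. The groups of P2ry12 were already separate with that library kept, so leaving it out could not change this. Under the same split 13.6% of all tested genes were higher and 21.5% were lower in every Sevo sample. The differences were then 0.27 (95% interval -0.17 to 0.70) for C1qa, 0.32 (-0.12 to 0.76) for C1qc and 0.10 for C1qb. None passed the test, with adjusted p-values of 0.548, 0.484 and 0.83 (limma). C1qb thus turned from lower to higher in Sevo.

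Within a sample, the chains kept similar ratios to each other. C1qa was 0.737 to 0.961 of C1qc, and C1qb was 0.708 to 1.12 of C1qc. The ratio of C1qa to C1qc was 0.827 ± 0.118 in Ctr and 0.813 ± 0.085 in Sevo (SD, n = 3). The ratio of Csf1r to C1qc was 0.737, 0.682 and 0.553 in Ctr and 0.379, 0.518 and 0.433 in Sevo. All 3 Sevo ratios lay below the lowest Ctr ratio, the 0.553 of Ctr replicate 3. Leaving out Ctr replicate 2 could not undo this separation, so it gives no check of it. This pair was looked at after its values were seen, among 9 ratios, and the ratio was not tested. P2ry12 to C1qc was 0.604, 0.400 and 0.575 in Ctr and 0.346, 0.275 and 0.427 in Sevo, where the groups overlapped.

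**Figure D4:**
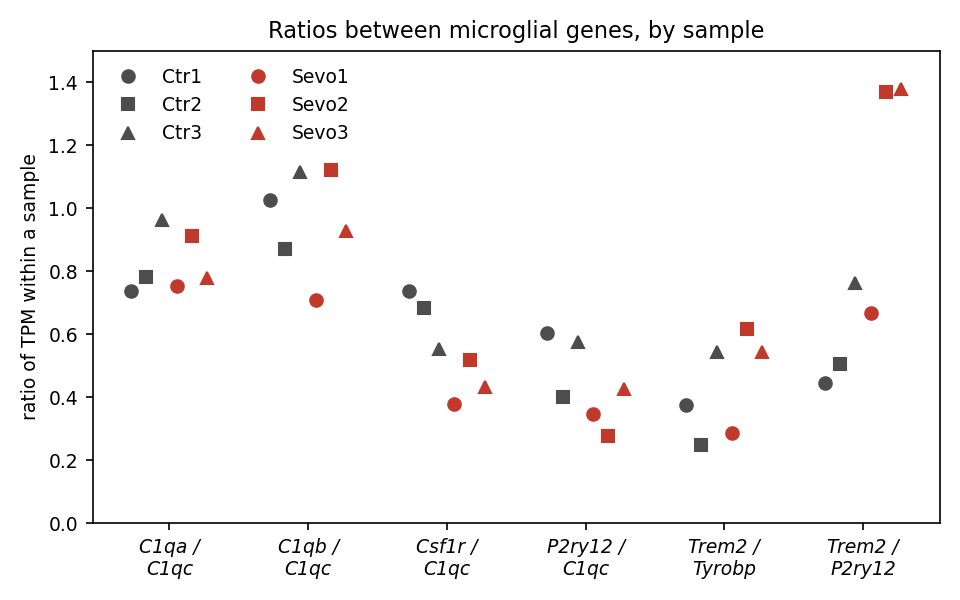
Ratio of TPM between pairs of microglial genes within each sample (grey Ctr, red Sevo, shape by replicate number). The ratio of Csf1r to C1qc runs from 0.553 to 0.737 in Ctr and from 0.379 to 0.518 in Sevo, while the other 5 ratios overlap between the groups.

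Most of the complement system beyond C1q was at low levels, with 9 of 15 genes under a mean of 1 TPM. The proteases that bind C1q, C1ra and C1s1, were at 0.02 to 0.2 TPM, and C4b at 0.05 to 0.35 TPM. C3, which was too low to be tested, was at 0.13, 0.14 and 0.07 TPM in Ctr and 0.20, 0.91 and 0.60 TPM in Sevo. The 6 genes above that mean were tested and 0 passed, with a median difference of -0.003. Clu (clusterin), which inhibits the terminal complex and is also made by neural cells, was at 29.8, 40.7 and 26.3 TPM in Ctr and 61.4, 38.8 and 45.5 TPM in Sevo (difference 0.57, unadjusted p = 0.0253, adjusted p = 0.199, limma). Its groups overlapped. Cr1l (Crry), the rodent regulator that protects cells from C3 deposition, was at 19.4 to 21.4 TPM in Ctr and 10.6 to 19.1 TPM in Sevo (difference -0.45, adjusted p = 0.273).

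TREM2 and its adaptor TYROBP had higher means in Sevo, within their error. Trem2 was at 1.87, 2.13 and 2.72 TPM in Ctr and 2.22, 2.86 and 4.88 TPM in Sevo. Sevo replicate 3 was the highest, and Sevo replicate 1 lay within the Ctr range. The difference was 0.38 (95% interval -0.22 to 0.98, adjusted p = 0.466, limma), the largest among the members. Without Sevo replicate 3 it was 0.13, so most of it rested on that library, and without Ctr replicate 2 it was 0.36.

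Tyrobp was at 4.98, 8.57 and 5.01 TPM in Ctr and 7.76, 4.65 and 8.98 TPM in Sevo. It had the widest interval of the members, and the Sevo group held both the highest and the lowest sample. The difference was 0.17 (95% interval -0.46 to 0.81, adjusted p = 0.765, limma). It was 0.40 (-0.26 to 1.05) without Ctr replicate 2 and 0.42 without Sevo replicate 2, but 0.006 without Sevo replicate 3. The ratio of Trem2 to Tyrobp was 0.249 to 0.543 in Ctr and 0.286 to 0.615 in Sevo.

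Trem2 and P2ry12 mark opposite ends of a known range of microglial states, P2ry12 being high in surveying cells and Trem2 in phagocytic cells of adult brain. Their ratio was 0.444, 0.505 and 0.764 in Ctr and 0.669, 1.37 and 1.38 in Sevo. Of the Sevo samples, 2 were above all Ctr samples, and Sevo replicate 1 was below Ctr replicate 3. The ratio was chosen after the values were seen and was not tested.

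Of 12 genes of TREM2-DAP12 signalling, 7 had a mean under 1 TPM and 5 were tested. None passed (0 of 5, and 0 at an unadjusted p under 0.05, limma), and the median difference was -0.03. The kinases Syk and Btk were under 1 TPM in every sample. The most abundant were Apoe, a lipid carrier and TREM2 ligand that is also made by radial glia, at 60.1, 154 and 66.2 TPM in Ctr and 121, 94.6 and 111 TPM in Sevo, and Grb2, a widely used adaptor, at 79.7 to 111 TPM. Apoe was highest in Ctr replicate 2, where the choroid plexus and border macrophage genes were also highest. Of 14 genes of the phagocytic state, 8 were tested and 0 passed, with a median difference of 0.21. The most abundant were Fabp5, a fatty acid binding protein also made by neural progenitors, at 564 to 614 TPM in Ctr and 505 to 557 TPM in Sevo (difference -0.17, adjusted p = 0.272, limma), and Ctsb, a lysosomal protease, at 95.5 to 115 TPM in Ctr and 107 to 125 TPM in Sevo (difference 0.16, adjusted p = 0.446, limma). Of the 8, 3 were lower and 5 were higher in Sevo. Spp1 (osteopontin), named after its values were seen, was at 1.81, 4.2 and 1.96 TPM in Ctr and 1.83, 0.93 and 1.21 TPM in Sevo (difference -0.61, adjusted p = 0.301, limma). Its highest value was that of Ctr replicate 2. Lgals3, also named after its values were seen, went the other way (difference 0.69, adjusted p = 0.305, limma). It was at 0.64, 1.43 and 0.49 TPM in Ctr and 2.04, 3.18 and 0.96 TPM in Sevo. Ctsd, a lysosomal protease made by most cells, was the only gene of the 8 with an unadjusted p under 0.05 (77.0 to 95.4 TPM in Ctr, 96.2 to 112 TPM in Sevo, adjusted p = 0.175, limma). Such a p was found for 19.4% of all tested genes.

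The last members are used mainly as markers. Aif1, which encodes the actin-binding protein IBA1 used to stain microglia, was at 1.5, 2.81 and 1.52 TPM in Ctr and 1.51, 2.29 and 1.76 TPM in Sevo. Both groups held a sample well above the others, replicate 2 in each, and those libraries were also the highest of their groups for the border macrophage sum. The difference was -0.02 (95% interval -0.59 to 0.54, adjusted p = 0.965, limma), and it was 0.18 without Ctr replicate 2. Fcrls, a scavenger-type receptor of the Fc receptor-like family known as a marker of mouse microglia, was at 3.84, 5.49 and 4.74 TPM in Ctr and 5.54, 4.10 and 4.59 TPM in Sevo. It differed by 0.02 (95% interval -0.41 to 0.44, adjusted p = 0.97, limma), and the groups overlapped almost fully.

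Other genes of microglia and macrophages were read beside the members. Of 12 further microglial genes, 8 were tested and 0 passed, with 6 lower and 2 higher in Sevo and a median difference of -0.10. Tmem119, a marker of mature microglia, was at 0.74 to 1.56 TPM. Sall1, a transcription factor of microglia that cortical progenitors also express, was at 36.8, 36.5 and 40.6 TPM in Ctr and 28.7, 26.8 and 19.8 TPM in Sevo (difference -0.59, unadjusted p = 0.0042, adjusted p = 0.118, limma). Its groups did not overlap, and Sall1 was many times more abundant than the microglial members. Golm1, the most abundant of the list, was at 44.4 to 46.8 TPM in Ctr and 36.9 to 43.0 TPM in Sevo (adjusted p = 0.381).

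Of 27 genes shared by macrophages, 16 were tested and 0 passed, with a median difference of -0.04. Their sum was 112 to 138 TPM in Ctr and 112 to 119 TPM in Sevo. Spi1, which encodes PU.1, was above 0 in every sample and had a mean of 1.49 TPM. Coro1a, an actin regulator that neurons also make, was the most abundant at 42.3 to 47.5 TPM, and Cyba, a subunit of the phagocyte oxidase, was at 7.92 to 13.3 TPM. Cd68, a lysosomal protein of phagocytes, was at 7.71, 8.60 and 8.60 TPM in Ctr and 4.64, 5.51 and 6.18 TPM in Sevo (difference -0.54, unadjusted p = 0.0085, adjusted p = 0.142, limma). Lcp1, an actin-bundling protein of leukocytes, was at 5.70 to 6.98 TPM in Ctr and 4.25 to 5.18 TPM in Sevo (difference -0.41, unadjusted p = 0.0335, adjusted p = 0.219, limma). Both were lower in every Sevo sample than in any Ctr sample, as were 17.7% of all tested genes. An unadjusted p under 0.05 (limma) was found for 19.4% of all tested genes.

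Most inflammatory genes were low, with 16 of 20 under a mean of 1 TPM. Il1b was at 0 in all 3 Ctr samples and at 0.05 to 0.12 TPM in Sevo, and Tnf, Il6, Ccl4 and Cxcl10 reached at most 0.16 TPM in any sample. The other 4 were tested and 0 passed (limma, 0 at an unadjusted p under 0.05). The most abundant, Nfkbia and Il18, were at 11.5 to 22.6 TPM and 4.62 to 7.30 TPM, with overlapping groups. Genes of other blood cells were also low. The sums over 13 neutrophil and monocyte genes were 0.23 to 1.5 TPM, with S100a8 and S100a9 the most abundant, and those over 10 lymphocyte and mast cell genes, led by Cd79a and Ms4a1, were 0.28 to 0.57 TPM. None of either list could be tested. Erythroid genes, which come with blood in the vessels, summed to 2200 to 3904 TPM in Ctr and 2695 to 4232 TPM in Sevo.

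The members' joint profile over the 6 samples followed Ctr replicate 2. The mean of their centred log2 values was 0.26 in Ctr replicate 2, 0.10 in Sevo replicate 3, and between -0.13 and -0.02 in the other 4 samples. Correlation of each member with this mean, given as a description over 6 samples of unequal tissue makeup, ran from r = 0.16 for Trem2 to 0.85 for Tyrobp. Each member is itself part of this mean, which raises its r, so these values cannot be set beside those of other genes. The order did not hold without Ctr replicate 2, where Tyrobp was at 0.95 and Trem2 at 0.79, but Aif1 at -0.06 and Csf1r at -0.48. The 5 other genes most like it were Rdm1, Cavin1, Bvht, Slc38a5 and Wdr86, with r of 0.985, 0.979, 0.974, 0.974 and 0.973. Cavin1, a component of caveolae that endothelial cells express, was at 7.91 TPM in Ctr replicate 2 and at 2.89 to 4.81 TPM elsewhere. None of the 100 most similar genes (0 of 100) belonged to the lists of other microglial, macrophage or border macrophage genes. Only 27 of the 14508 tested genes outside the members were in these lists, so a count of 0 says little. Those 27 tested genes had a median r of 0.63, against 0.04 over all other genes, and a median r of 0.20 without Ctr replicate 2, against -0.05. Rnase4, Cd53 and Ly86 led them, with r of 0.857, 0.845 and 0.82.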

How the data were processed

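Total RNA of the fetal cortex was extracted with TRIzol and sequenced from Illumina libraries in 3 Ctr and 3 Sevo samples. The deposited values are TPM that the authors computed per gene and sample, rounded to 2 decimals. For the program and annotation behind them, the sources used here give no name. Bowtie 0.12.2 and edgeR stand in the processing notes of the submitters, as do mm8 and mm10, without a statement of what each was used for. The authors used DESeq2 for their own comparison, as the study's methods state, and it needs counts.

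Of 56198 entries, 662 had no name and 27 names that a spreadsheet had turned into dates were restored. Named genes whose mean reached 1 TPM, 14518 in all, were tested on log2(TPM + 1) with limma 3.58.1 in R 4.3.3 (eBayes with trend, two-sided, Benjamini-Hochberg adjustment over all of them), after the script was tested on simulated data. The 3 against 3 design allows an exact permutation p of 0.1 at the lowest. Between 14485 and 15193 entries per sample reached 1 TPM, and read depth is unknown. Positions and exon overlaps came from GENCODE M21 by Ensembl identifier. Python 3.11.15, pandas 2.3.3, SciPy 1.17.1 and matplotlib 3.10.9 were used for the rest.

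The members, the other gene lists and the tests were chosen with earlier results of these data known. Besides the members, the text names any gene of a list past the test or else its 2 most abundant, and in the lists of microglial, macrophage, ligand, TREM2 and complement genes any at an unadjusted p under 0.05, plus the 5 genes most similar in profile. Genes named for being low or absent, the markers that separate Ctr replicate 2, Ctsd, Spp1, Lgals3, and the ratios other than those of the C1q chains were picked after their values were seen. Some genes that the rule allows are not reported here. Alternatives were other pseudocounts (0.1 and 0.01), filters, scalings and variance models, a replicate block, and each sample left out.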

Additional observations from a re-analysis of the deposited data

How the results depend on the processing

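No member passed an adjusted p of 0.05 under any of 16 alternative fits (0 in each, lowest adjusted p 0.271 from limma, without Sevo replicate 1), among them pseudocounts of 0.1 and 0.01, no filter, a minimum mean of 5 TPM (which left 4 members), 3 other scalings, 2 other variance models and a replicate block. With each sample left out, the count of members called stayed at 0, the count over all genes ran from 1 to 7 (7 without Sevo replicate 1, 2 without Ctr replicate 2 or 3 or Sevo replicate 2 or 3), the median of the members from -0.08 to 0.15, and the ratio of the sums from 0.938 to 1.14. The replicate numbers did not pair the samples (correlations of deviations -0.02, 0.02 and 0.01), and with a replicate block 1 gene and 0 members passed. Of 154 single-member values, 11 changed sign, all in the 5 members with small differences. Under median centring, which raised the median of all genes by 0.10, Aif1 was 0.0727 and C1qb 0.0874, and under quantile normalization C1qb was 0.0522. With a sample left out, Aif1 ran from -0.13 to 0.18, C1qa from -0.0313 to 0.27, C1qb from -0.0793 to 0.10, C1qc from -0.0213 to 0.32 and Fcrls from -0.10 to 0.12. The cause of these changes was not tested. TPM hold no depth, so it is unknown how much of the spread of genes at 1 to 10 TPM is counting error.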
